A study of Homo sapiens with 2 samples.

Results

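The genes described here are the G1 cyclins CCND1, CCND2, CCND3, CCNE1 and CCNE2, the kinases CDK2, CDK4 and CDK6 that they activate, and the kinase inhibitors CDKN1B and CDKN1C. They were chosen by name, as protein-coding genes with these symbols, and all 10 were found among the 58735 genes of the deposited table. RNA was sequenced from 2 libraries of SH-SY5Y, a human line derived from a neuroblastoma. The first group was control cells and the other was cells exposed for 24 h to TDCPP, a chlorinated organophosphate flame retardant, together with TiO2 NPs, which are titanium dioxide nanoparticles. Each group was 1 library, the labels give no dose and describe no library of either agent alone, and both libraries carry the same treatment tag, Cytotoxicity.

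Cells in G1 decide whether to copy their DNA. D cyclins, made in response to growth signals, bind CDK4 and CDK6, and these kinases begin the phosphorylation of the retinoblastoma protein RB, which releases E2F transcription factors. E2F factors in turn drive the genes of E cyclins, which activate CDK2 and complete the step into DNA synthesis. Inhibitors of the CIP/KIP family, p21 (CDKN1A), p27 (CDKN1B) and p57 (CDKN1C), bind cyclin-CDK complexes and restrain CDK2, while the INK4 family acts on CDK4 and CDK6 alone. In neuroblastoma, high cyclin D1 and amplified CDK4 are known features of part of the tumours.

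The libraries held 16471438 reads on annotated genes in the control and 15315572 in the exposed library. Levels are given in FPKM, fragments per kilobase of the gene's length after scaling for library size, with the exact 95% Poisson interval of the reads behind them. The read ratio is exposed over control on the authors' scaling, with an exact conditional binomial 95% interval. These intervals cover counting error only, treat reads as independent, and compare 2 libraries, not the conditions, because no group had a replicate and no test was possible. The log2 ratio adds 1 FPKM to each value first, which understates the differences of low genes, and a gene was counted as lower or higher at 1.5-fold or more on that scale. Of the 21 neuroblastoma identity markers listed, 6 reached a mean of 1 FPKM, the minimum for a gene to be called measured. PHOX2A, TH, STMN2 and ELAVL4 had 0 reads in both libraries, and 0 reads are compatible with up to 3, which equals 0.182 RPM in the control and 0.196 RPM in the exposed library (RPM, reads scaled to library size). The summed FPKM of the markers was 297 in the control and 307 in the exposed library, most of it from UCHL1, a neuronal ubiquitin hydrolase gene, and the neurofilament gene NEFL. Of the 6 measured markers 5 had a log2 ratio below 0, with a median of -0.34, and the other, UCHL1, went from 201 to 237 FPKM. GATA2, a transcription factor gene, was lower at a log2 ratio of -0.66, from 11.7 to 7.03 FPKM, with a read ratio of 0.6001 (0.536 to 0.672), and NEFL went from 74.0 to 55.5 FPKM. None of the 6 was 1.5-fold higher. Over all measured protein-coding genes 58.1% lay below 0, and 2.16% were lower and 2.53% higher at 1.5-fold. The part of the low or absent markers in any result was not tested. Because whole cultures were sequenced, fewer cells in a cell cycle phase and less RNA per cell cannot be told apart.

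The RNAs of both E cyclins, of cyclin D1 and of the inhibitor p57 were lower in the exposed library, while those of CDK4, p27 and cyclin D2 lay close to the control. The RNAs of CDK2, CDK6 and cyclin D3 lay between, at read ratios of 0.850, 0.762 and 0.720. All 10 genes were measured, and 4 of them, CCNE1, CCND1, CDKN1C and CCNE2, were at least 1.5-fold lower. The same rule called 2.16% of the 11409 measured protein-coding genes lower. None of the 10 was at least 1.5-fold higher, against 2.53% of measured genes, and none reached 2-fold in either direction, beside 0.131% of measured genes lower and 0.657% higher at that fold. With a pseudocount of 5 FPKM in place of 1, the count of lower genes was 2, CCNE1 and CCND1, beside 74 of the 11409 measured genes. The log2 ratios ran from -0.84 for CCNE1 to 0.11 for CDK4 with a median of -0.39, whereas the median over all measured genes was -0.05 and their middle 95% lay between -0.56 and 0.59. Of the 10 genes, 9 had a log2 ratio below 0 and CDK4 alone was above it, beside 58.1% of all measured genes below 0. The counting interval of the read ratio lay below 1 for 9 genes and above 1 for CDK4, and among all measured genes it lay below 1 for 36.0% and above 1 for 21.5%. With each of 5 other scalings between the libraries it lay below 1 for 7 genes, and it included 1 for CCND2 and CDKN1B.

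**Figure D1:**
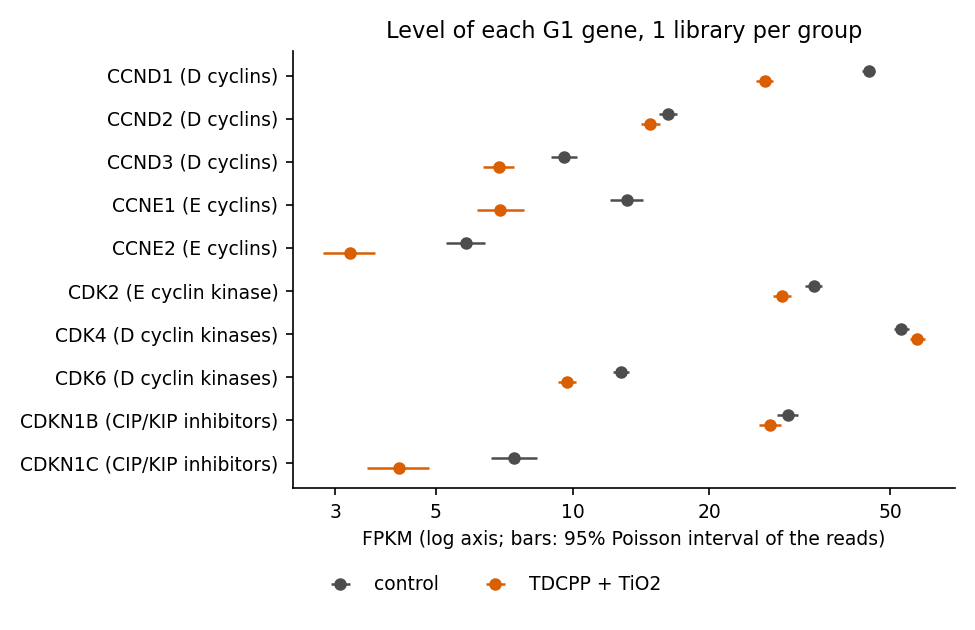
Level of each of the 10 genes in FPKM (log axis) in the control library (grey) and the exposed library (orange), with 95% Poisson intervals of the reads as bars. CDK4 is the highest in both libraries at 53.0 and 57.4 FPKM, and CCNE2 the lowest at 5.83 and 3.23 FPKM.

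CCND1, which encodes cyclin D1 (ENSG00000110092, GRCh38 chromosome 11, 69641087 to 69654474), stood at 44.9 FPKM (43.4 to 46.4) in control cells and 26.5 FPKM (25.4 to 27.7) in exposed cells. The 3471 and 2019 reads of CCND1 gave a read ratio of 0.590 (0.558 to 0.624). Only 91 measured genes had a lower log2 ratio than its -0.74. CCND2, the cyclin D2 gene (ENSG00000118971, chromosome 12, 4273772 to 4305350), stood at 16.2 FPKM (15.5 to 17.0) and 14.8 FPKM (14.1 to 15.6). The intervals of its levels overlapped, and its read ratio was 0.914 (0.855 to 0.977). CCND3, the cyclin D3 gene (ENSG00000112576, chromosome 6, 41934933 to 42050357), had a ratio between those of CCND1 and CCND2, at 0.720 (0.649 to 0.798), from 9.57 FPKM (8.95 to 10.2) to 6.89 FPKM (6.36 to 7.44).

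The D cyclins thus differed from each other by more than counting error. The ratio of CCND1 was 0.645 times that of CCND2 (0.592 to 0.704) and 0.820 times that of CCND3 (0.729 to 0.922), and the ratio of CCND3 was 0.787 times that of CCND2 (0.696 to 0.890). The reads of CCND1 made up 55.8% of all D cyclin reads in the control (Wilson 95% interval 54.6% to 57.1%) and 46.7% in the exposed library (45.2% to 48.2%). The share of CCND2 was 29.9% (28.7% to 31.0%) and 38.7% (37.3% to 40.2%), and that of CCND3 was 14.3% and 14.6% with overlapping intervals. Per length, the D cyclins summed to 70.7 FPKM in control and 48.2 FPKM in exposed cells, a ratio of 0.682. CCND1 was the most abundant D cyclin RNA in both libraries.

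CCNE1, the cyclin E1 gene (ENSG00000105173, chromosome 19, 29811898 to 29824308), had the lowest log2 ratio of the 10 genes, and 39 measured genes lay below it. Its level was 13.2 FPKM (12.1 to 14.3) in control cells and 6.94 FPKM (6.15 to 7.80) in exposed cells. With 537 and 279 reads it had a read ratio of 0.527 (0.454 to 0.610). CCNE2, which encodes the related cyclin E2 (ENSG00000175305, chromosome 8, 94879770 to 94896678), stood at 5.83 FPKM (5.28 to 6.42) and 3.23 FPKM (2.82 to 3.68). Its read ratio was 0.554 (0.469 to 0.654), from 410 and 224 reads. The difference between the E cyclins was within counting error, with a ratio for CCNE1 that was 0.951 times that of CCNE2 (0.760 to 1.19). The FPKM of CCNE1 was 2.26 times that of CCNE2 in the control and 2.15 times in the exposed library, and their sum went from 19.0 to 10.2 FPKM, a ratio of 0.535.

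**Figure D2:**
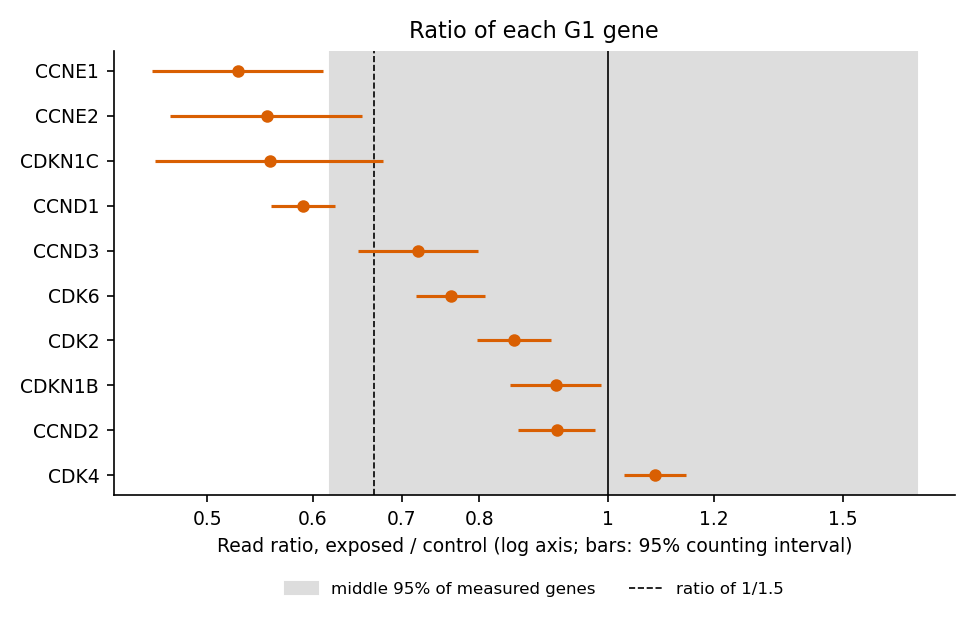
Read ratio of each gene, exposed over control (log axis), with 95% counting intervals as bars, beside the middle 95% of measured genes (grey, 0.619 to 1.70) and a ratio of 1/1.5 (dashed). CCNE1, CCNE2, CDKN1C and CCND1 lie left of the grey band, and CDK4 is the 1 gene right of a ratio of 1.

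CDK4, a kinase partner of the D cyclins (ENSG00000135446, chromosome 12, 57747727 to 57756013), was the most abundant of the 10 RNAs per length. It stood at 53.0 FPKM (51.0 to 55.0) in control cells and 57.4 FPKM (55.4 to 59.6) in exposed cells, and its 2685 and 2870 reads gave a read ratio of 1.08 (1.03 to 1.14). CDK6, the other D cyclin kinase (ENSG00000105810, chromosome 7, 92604921 to 92836594), was lower, at 12.8 FPKM (12.3 to 13.3) and 9.73 FPKM (9.30 to 10.2), a read ratio of 0.762 (0.717 to 0.809). The ratio of CDK6 was 0.702 times that of CDK4 (0.648 to 0.761), so the related kinases differed by more than counting error. CDK2, the kinase of the E cyclins (ENSG00000123374, chromosome 12, 55966769 to 55972784), stood at 34.0 FPKM (32.6 to 35.5) and 28.9 FPKM (27.6 to 30.3), a read ratio of 0.850 (0.797 to 0.905). Its ratio was 0.784 times that of CDK4 (0.721 to 0.851), and the ratio of CDK6 was 0.896 times that of CDK2 (0.821 to 0.979).

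Kinase RNA as a whole was closer to the control than cyclin RNA. The 3 kinases summed to 99.8 FPKM in control and 96.1 FPKM in exposed cells, a ratio of 0.963, and the 5 cyclins to 89.7 and 58.4 FPKM, a ratio of 0.651. With the 5 other scalings the kinase ratio lay between 0.988 and 1.05, on either side of 1, and the cyclin ratio between 0.668 and 0.709. With reads added in place of FPKM, the ratio was 0.906 (0.876 to 0.936) for the kinases and 0.683 (0.659 to 0.709) for the cyclins. CDK4 and CDK6 together had an FPKM ratio of 1.02, but 0.928 (0.892 to 0.966) when reads were added instead, since the long CDK6 RNA then weighs more. The FPKM of D cyclins per FPKM of CDK4 and CDK6 was 1.08 in the control and 0.718 in the exposed library. The FPKM of E cyclins per FPKM of CDK2 was 0.559 and 0.352.

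**Figure D3:**
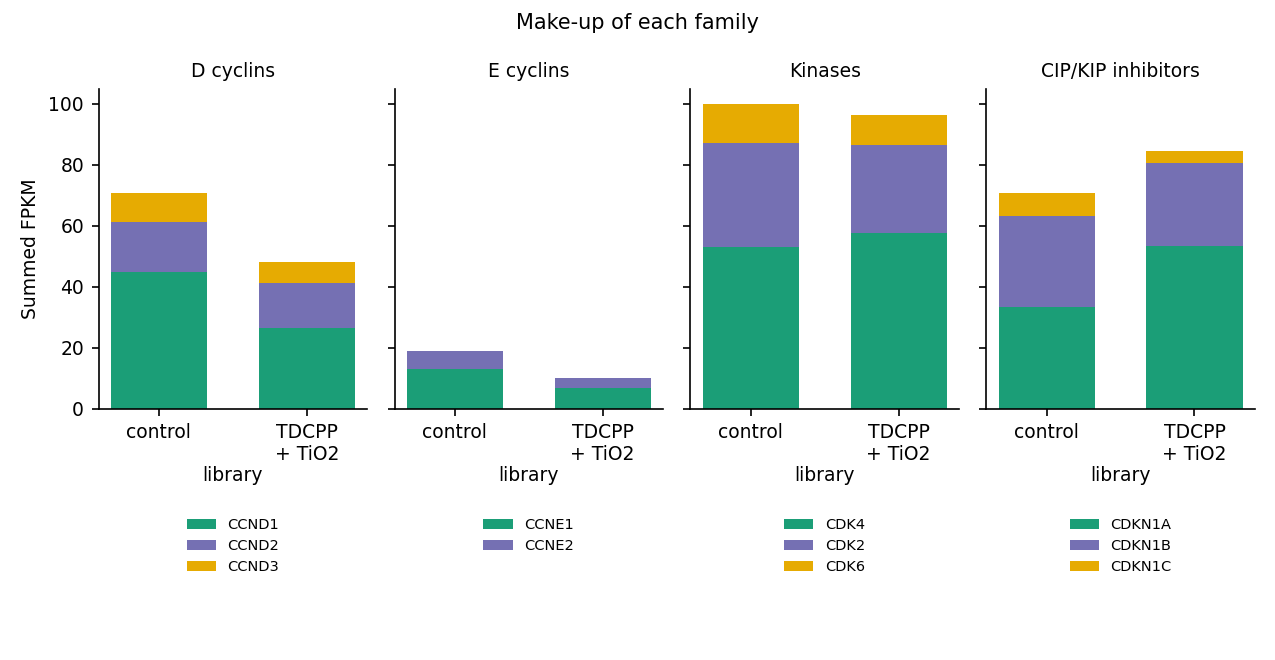
Summed FPKM of each family in the control and exposed library, stacked by gene, with the p21 gene CDKN1A added to the CIP/KIP inhibitors. The D cyclins go from 70.7 to 48.2 FPKM and the E cyclins from 19.0 to 10.2 FPKM, while the kinases stand at 99.8 and 96.1 FPKM.

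CDKN1B, which encodes p27 (ENSG00000111276, chromosome 12, 12715058 to 12722371), stood at 29.8 FPKM (28.2 to 31.4) in control cells and 27.2 FPKM (25.7 to 28.8) in exposed cells. Those intervals overlapped, and the read ratio was 0.913 (0.844 to 0.988). CDKN1C, the imprinted p57 gene (ENSG00000129757, chromosome 11, 2883213 to 2885773), was lower, at 7.44 FPKM (6.62 to 8.34) and 4.15 FPKM (3.53 to 4.84), from 295 and 162 reads. Its read ratio was 0.557 (0.457 to 0.677), and 102 measured genes had a lower log2 ratio than its -0.71. The ratio of CDKN1C was 0.610 times that of CDKN1B (0.493 to 0.754). With the fewest reads of the 10, CDKN1C had the widest interval.

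The third CIP/KIP gene, CDKN1A, which encodes p21, went the other way, from 33.4 to 53.2 FPKM, a read ratio of 1.59 (1.498 to 1.70). The ratio of CDKN1A was 1.75 times that of CDKN1B (1.58 to 1.93). In the control the FPKM of CDKN1A was 1.12 times that of CDKN1B and in the exposed library 1.96 times. CDKN1A made up 49.9% of CIP/KIP reads in the control (48.2% to 51.6%) and 65.2% in the exposed library (63.7% to 66.7%), while the share of CDKN1C was 9.04% (8.10% to 10.1%) and 4.13% (3.55% to 4.79%). With CDKN1A the family summed to 70.6 and 84.6 FPKM. CCND1 stood at 1.35 times the FPKM of CDKN1A in the control and at 0.498 times in the exposed library.

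The order of the levels shifted mainly through CCND1 and CCNE1. In the control the order from the highest was CDK4, CCND1, CDK2, CDKN1B, CCND2, CCNE1, CDK6, CCND3, CDKN1C and CCNE2, and CCNE1 and CDK6 were the only neighbours whose intervals overlapped. In the exposed library CCND1 was the fourth, after CDK4, CDK2 and CDKN1B. The intervals of CDK2, CDKN1B and CCND1 all overlapped each other, so counting error leaves their order unsettled. CCNE1 came after CDK6 there, next to CCND3 with an overlapping interval, and CDKN1C and CCNE2 also overlapped. In all, 9 pairs of genes within families were compared by the ratio of their read ratios, and the interval included 1 for CCNE1 against CCNE2 alone.

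**Figure D4:**
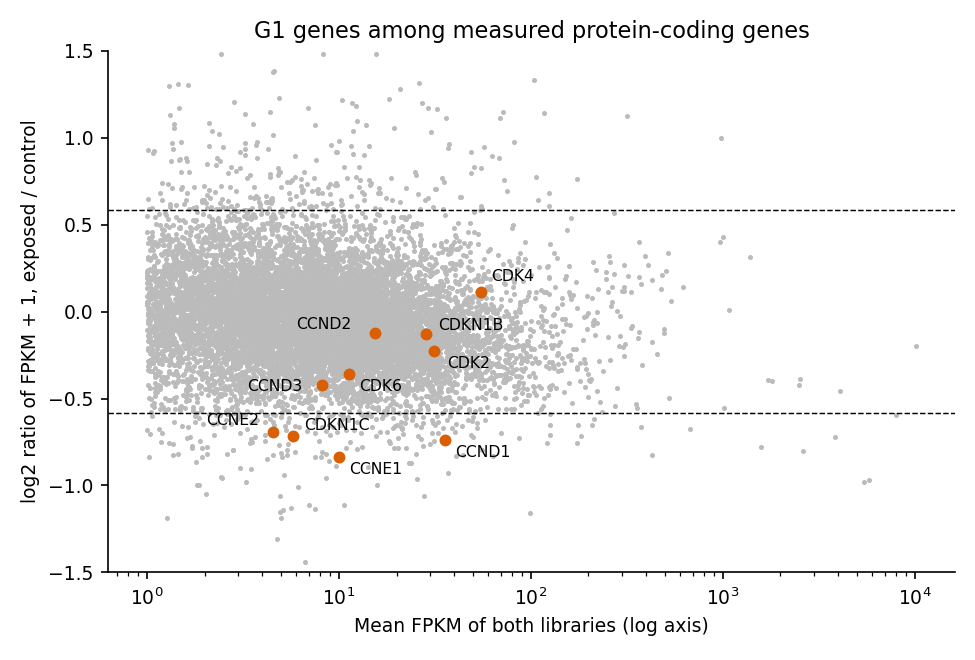
Log2 ratio of FPKM + 1 against mean FPKM (log axis) for 11409 measured protein-coding genes (grey) and the 10 G1 genes (orange), with 1.5-fold as dashed lines. CCNE1, CCND1, CDKN1C and CCNE2 lie under the lower line, CDK4 lies above 0, and 32 grey genes beyond the axis are not shown.

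Promoter windows, from 250 bases before to 50 after an annotated start, were taken from RefSeq on GRCh38.p14. Windows of 5 of the 10 genes were used, 8 in all. Those shown are the gene with the lowest log2 ratio (CCNE1), the D cyclin kinases that differed from each other (CDK4 and the upstream start of CDK6), and CDKN1B, which lay close to the control. They are CCNE1 at chr19:29811741-29812040 on the plus strand, CDK4 at chr12:57752261-57752560 on the minus strand, CDK6 at chr7:92836524-92836823 on the minus strand and CDKN1B at chr12:12717118-12717417 on the plus strand. Each reads 5′ to 3′ on the strand of its gene, and capitals mark exact matches on either strand to the SP1 word GGGCGG, the E-box CACGTG or the CCAAT box, none of which overlapped another.
CCNE1: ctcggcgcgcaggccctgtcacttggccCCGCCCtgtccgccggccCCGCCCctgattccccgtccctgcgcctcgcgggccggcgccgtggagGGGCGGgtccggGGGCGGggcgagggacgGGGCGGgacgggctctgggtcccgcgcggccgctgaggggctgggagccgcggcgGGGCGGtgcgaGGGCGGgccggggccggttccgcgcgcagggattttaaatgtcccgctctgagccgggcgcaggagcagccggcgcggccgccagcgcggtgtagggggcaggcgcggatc
CDK4: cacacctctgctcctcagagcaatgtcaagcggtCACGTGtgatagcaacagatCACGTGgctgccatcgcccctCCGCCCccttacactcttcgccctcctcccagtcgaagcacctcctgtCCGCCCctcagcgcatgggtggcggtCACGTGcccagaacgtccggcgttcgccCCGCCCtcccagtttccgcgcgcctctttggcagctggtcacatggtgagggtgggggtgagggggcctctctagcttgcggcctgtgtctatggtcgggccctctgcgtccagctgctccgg
CDK6: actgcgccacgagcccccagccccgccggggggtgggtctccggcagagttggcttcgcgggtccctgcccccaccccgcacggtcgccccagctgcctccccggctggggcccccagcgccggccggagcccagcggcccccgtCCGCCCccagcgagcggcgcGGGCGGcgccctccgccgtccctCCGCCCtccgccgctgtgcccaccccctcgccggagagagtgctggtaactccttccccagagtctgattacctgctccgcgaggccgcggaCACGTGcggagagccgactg
CDKN1B: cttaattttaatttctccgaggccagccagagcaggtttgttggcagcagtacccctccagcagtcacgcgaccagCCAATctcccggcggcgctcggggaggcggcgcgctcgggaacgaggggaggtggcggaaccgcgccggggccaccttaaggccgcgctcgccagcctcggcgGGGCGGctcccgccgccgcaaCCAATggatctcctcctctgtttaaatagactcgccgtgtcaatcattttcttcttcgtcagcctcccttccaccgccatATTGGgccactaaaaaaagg

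The CDK4 window held 3 E-boxes, the word that MYC and MAX bind, and 3 SP1 words. At least 1 E-box was found in 7.26% of the 35116 windows of the table, and 3 or more in 0.094%. This cut-off and those below for SP1 and CCAAT words equal the largest counts found in these genes' windows, so such shares are not a test. Of the 3 E-boxes of CDK4, 1 lay within the 150 bases nearest the start. The window shown for CDK6, whose gene had the lower ratio, held 1 E-box, after the start site, and 3 SP1 words, and the window at its second start held 0 of either. MYC itself had a log2 ratio of 0.21, from 18.0 to 20.9 FPKM, and its relative MYCL stood at 0.12. MYCN, too low to be called measured, had 18 reads in the control and 5 in the exposed library. The part of these genes in the ratios of CDK4 and CDK6 was not tested. The CCNE1 window held 7 SP1 words, as did 1.5% of windows at that number or more, and no E-box, and its GC content was 81.0%. The CDKN1B window held 3 CCAAT words, found at that number or more in 3.26% of windows, and 1 SP1 word. An SP1 word was present in 6 of the 8 windows, against 45.0% of all windows, and a CCAAT word in 3 of the 8, those of CDKN1B and of a pair of CCND3 starts, against 34.6%. No window of the 5 genes held the E2F words TTTCCCGC, TTTGGCGC, TTTCGCGC or TTTGCCGC, which 3.31% of all windows held, nor the CHR words TTTGAA or TTCGAA (16.4%). The AP-1 words TGACTCA and TGAGTCA (4.95%), the cAMP response element TGACGTCA (1.85%) and the C/EBP-ATF words TGATGCAAT and TGATGAAAT (0.533%) were also not in these windows. The matches describe these letters only and do not show that a factor was bound. Other forms of these sites, such as variant E2F sites, were not searched, so a window without a word may still hold a site. No promoter entry was at hand for CCND1, CCND2, CDK2 and CDKN1C. CCNE2 was left out before the search, not for lack of a match. The absence of E2F words therefore says nothing about CCNE2 or those genes.

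Several of the genes share exon sequence with a gene on the other strand, and the sources used here do not say whether counting used strand. For CDK4, 43.2% of its exon bases (1369) are also exon of TSPAN31, which had 560 and 633 reads, a read ratio of 1.15 (1.02 to 1.29). For CCNE2, 37.0% of its exon bases (1629) are also exon of INTS8, which had 1207 and 952 reads, a read ratio of 0.8001 (0.734 to 0.872). For CCND1 the shared part is 10.3% (497 bases), with LTO1 at 615 and 663 reads and a read ratio of 1.09 (0.978 to 1.22). CDK2 shares 14.5% of its exon bases with the antisense gene AC025162.1, listed at 0 reads in both libraries, and 2.29% with PMEL. CCND2 shares 13.8% with the same-strand gene AC008012.1, at 0 and 1 reads. CCNE1 and CDKN1C overlapped no other annotated gene. The 4 annotated pseudogene copies of these genes had 2 reads in the control and 0 in the exposed library in all. The part of the overlaps in the values was not tested.

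Among the other inhibitors of cyclin-dependent kinases, 6 of 6 listed genes were measured, and CDKN1A was the 1 gene at least 1.5-fold higher, with none lower and a list median of -0.26. The INK4 genes CDKN2C (p18) and CDKN2D (p19) stood at log2 ratios of -0.49 and -0.47, and CDKN3, a phosphatase that acts on CDK2, at -0.28. Of the 6 genes, 5 lay below 0, beside 58.1% of all measured genes. At 1.5-fold, 2.53% of all measured genes were higher and 2.16% lower. The read ratio of CDKN2C was 0.696 (0.634 to 0.764), from 21.1 to 14.7 FPKM.

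G1 kinases act through the pocket proteins, E2F factors and their partners. Of 18 listed genes 17 were measured, none reached 1.5-fold in either direction and the median was 0.01. The largest values were those of TFDP1, the DNA-binding partner of E2F factors, at -0.48, from 73.1 to 52.1 FPKM, and of the repressor gene E2F7 at 0.39, from 13.9 to 18.6 FPKM. RBBP4, a histone-binding subunit of the DREAM complex, stood at -0.29 and E2F8 at -0.23. Among 35 E2F target genes of the G1/S transition, all measured, none reached 1.5-fold, the median was -0.22 and 28 lay below 0. Over all measured genes 58.1% lay below 0, 2.16% were at least 1.5-fold lower and 2.53% higher. With shares this small, none at 1.5-fold in lists of this size says little about them. The ribonucleotide reductase gene RRM2 had a log2 ratio of -0.56, the S-phase cyclin gene CCNA2 stood at -0.53 and the flap endonuclease gene FEN1 at -0.43.

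Genes for the activation and turnover of G1 cyclins, kinases and inhibitors had a median of -0.18 over 28 measured genes. None was at 1.5-fold in either direction, beside 2.16% of all measured genes lower and 2.53% higher. HSP90AB1, the HSP90 chaperone on which CDK4 folding depends, stood at -0.50, from 619 to 438 FPKM. The ubiquitin ligase subunit genes RBX1 and SKP1, parts of the complex that marks p27 and cyclin E for degradation, stood at -0.43 and -0.34, and the F-box gene FBXO4 at 0.33. Among transcription factors upstream of D cyclins and CIP/KIP genes, 26 of 27 were measured and the median was 0.01. None of them was at least 1.5-fold lower and 1 was higher, beside the same 2.16% and 2.53% of all measured genes. CTNNB1, the beta-catenin gene through which Wnt signals act on CCND1, stood at -0.51, from 40.7 to 28.3 FPKM. FOXO1, a factor known to raise CDKN1B, stood at -0.51, and JUN, known to raise CCND1, at 0.38.

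**Figure D5:**
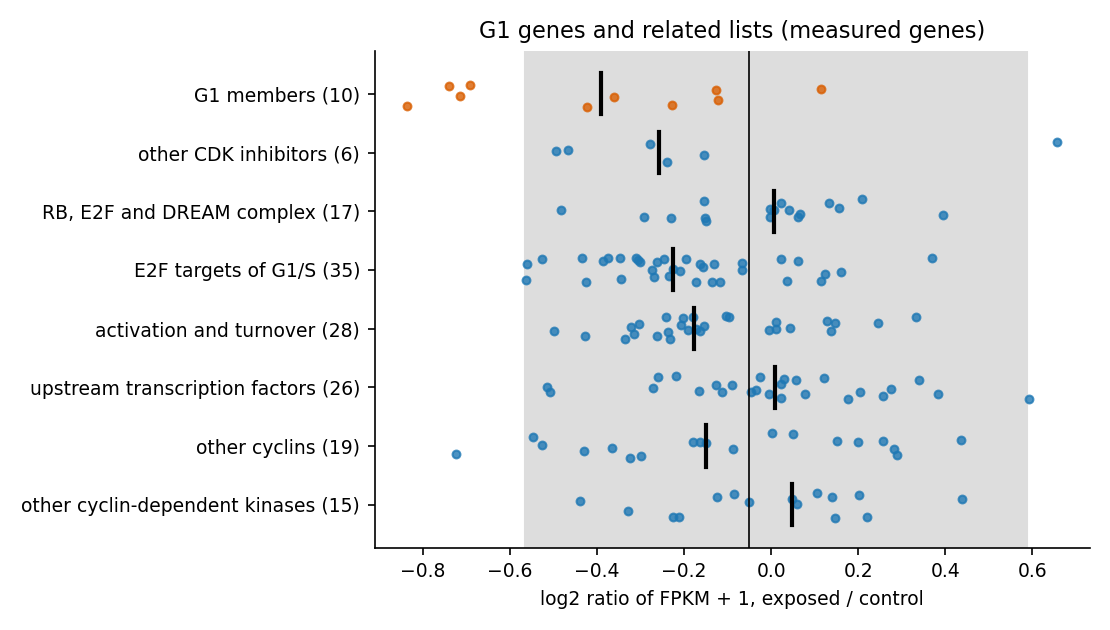
Log2 ratio of FPKM + 1 for each measured gene of the G1 set (orange) and of the lists around it (blue), with list medians as bars, the number measured in brackets, the middle 95% of all measured genes in grey and their median as a line. The G1 genes have the lowest median, -0.39, and 4 of the 10 lie left of the grey band.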

How the data were processed

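The deposited table gives 1 FPKM value per gene and library for 58735 genes, as made by the authors; which aligner and counter made it is not given in the sources used here. Mouse builds (GRCm38 and mm10) are named in the submitters' processing notes, but all 58735 genes had the human symbol, start and end of GENCODE release 29, so coordinates are on GRCh38. Multiplied by gene length, the FPKM were whole multiples of 1 step for 100% of values above 0 in each library, within 0.001 reads, which gave the reads behind each value. The library totals in the deposited FPKM equalled the read sums multiplied by 0.971 and 1.03, so the authors had already scaled between libraries, and no further scaling was applied.

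Measured genes were the 11409 of 19951 protein-coding genes with a mean of at least 1 FPKM. The log2 ratio was log2((exposed FPKM + 1)/(control FPKM + 1)), counted at 1.5-fold. With 1 library per group no test was run. Intervals were exact Poisson for levels, exact conditional binomial for read ratios and for ratios of 2 read ratios, and Wilson for shares of reads, all at 95%. Named genes were the 10 members, CDKN1A, up to 4 measured genes with the largest absolute log2 ratio of each list, and genes overlapping a member. A few genes that this rule covers are not reported here. MYC, MYCL and MYCN were named after their values were seen. With 2 libraries each gene has 1 ratio, so likeness of pattern between genes was not computed. The members, lists and the 1.5-fold rule were chosen with earlier results of these data known. Alternatives were other pseudocounts, filters, scalings and thresholds and removal of a length trend. The size rule and the intervals were run on simulated reads that varied by counting error alone, with planted 2-fold changes. That simulation holds no variation between cultures, so it cannot show how the intervals would cover such variation. Python 3.11.15, numpy 2.4.6, pandas 2.3.3 and scipy 1.17.1 were used.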

Additional observations from a re-analysis of the deposited data

Results flagged for a closer look

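Of the 17 genes that overlap a G1 gene, 2 outside the protein-coding comparison had more reads in the exposed library, with a counting interval above 1. They were picked by that rule, and the interval also lay above 1 for 21.5% of measured protein-coding genes. CCND2-AS1, a noncoding RNA on the strand opposite CCND2 that covers its start, had 10 reads in the control and 31 in the exposed library, a read ratio of 3.14 (1.502 to 7.19). It shares 126 exon bases with CCND2, 1.76% of the exon bases of that gene, and whether counting used strand is not given in the sources used here, so reads of the pair cannot be told apart there. CCND2 itself had a read ratio of 0.914. AC008115.3, annotated as a sense-intronic RNA within CDKN1B, had 17 and 35 reads, a read ratio of 2.09 (1.14 to 3.98), while that of CDKN1B was 0.913. It shares 0 exon bases with CDKN1B. Both rest on few reads.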

How the results depend on the processing

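The count of 4 lower genes stayed at 4 with a pseudocount of 0.1 FPKM, no filter, each of the 5 other scalings and the length trend removed, was 3 at a mean of at least 5 FPKM, where CCNE2 was not measured, and 5 at 1.3-fold. It was 2 with a pseudocount of 5 FPKM and 0 at 2-fold. None of the 10 genes was counted as higher under any of these 12 settings. The median log2 ratio of -0.39 was -0.28 with a pseudocount of 5 FPKM and -0.28 with FPKM scaled to equal sums, which shifted the median over measured genes from -0.05 to 0.06. No G1 gene changed sign under any of these settings, but CCND2 and CDKN1B stood at -0.0050 and -0.0075 with FPKM scaled to equal sums. Of 99 single values, 88 moved by no more than the distance from the middle to an end of their log2 counting interval. The 88 include values with no filter or a mean of at least 5 FPKM, which could not move since filters leave ratios unchanged. All measured genes counted as lower were 247, between 74 with a pseudocount of 5 FPKM and 465 with one of 0.1 FPKM at 1.5-fold. That count over all measured genes was 1064 at 1.3-fold and 15 at 2-fold. It was 164 at a mean of at least 5 FPKM, where fewer genes were measured. With FPKM scaled to equal sums the summed ratio of the D cyclins was 0.743, and the medians of the E2F targets and of the activation and turnover genes were -0.11 and -0.06. E-boxes were found for 1 gene, not 2, within the nearest 150 bases. No paired analysis was possible because each group had 1 library. Depth limits CDKN1C and CCNE2 the most, at 162 and 224 exposed reads.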

Other observations

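Cyclins and kinases with roles outside G1 were divided. Of 24 other cyclin genes found, 19 were measured, with a median log2 ratio of -0.15. CCNB1, the mitotic cyclin B1 gene, was the 1 gene at least 1.5-fold lower, at a read ratio of 0.602 (0.573 to 0.632), from 108 to 65.1 FPKM, and none was higher. CCNF stood at -0.55, CCNA2 at -0.53 and CCNY, a membrane-bound cyclin of Wnt signalling, at 0.44. The 15 measured kinases outside the G1 set had a median of 0.05 and none reached 1.5-fold. At that fold 2.16% of all measured genes were lower and 2.53% higher. CDK12, a kinase of RNA polymerase II, stood at -0.44, the mitotic kinase gene CDK1 at -0.33, the neuronal CDK5 at -0.23 and CDK20 at 0.44.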
